A study of Mus musculus with 6 samples.

Results

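Tapasin (Tapbp) and 9 further genes of the MHC class I loading pathway were followed in mouse neuroblastoma cells in which a hairpin RNA was directed against the pseudogene transcript Pbcas4. The 10 genes (Tapbp, Tap1, Tap2, B2m, Calr, Canx, Pdia3, Erap1, Psmb8 and Psmb9) were taken by symbol out of 19938 genes that had a probe annotated with exactly 1 symbol, and each of the 10 had a single such probe. N2A is a mouse neuroblastoma line. The cells were transiently transfected with either an shRNA construct specific for Pbcas4 or a scramble control hairpin, both transcribed from a U6 promoter, in triplicate, and RNA was taken 72 h later for Affymetrix Mouse Gene 1.0 ST arrays (3 per construct). Both groups therefore received a hairpin plasmid, cells that took up none may be part of each sample, no separate untransfected culture is among the 6 arrays, and each construct stands for 1 hairpin sequence in 1 cell line. No probe is named Pbcas4 in the annotation used, so the level of the targeted transcript was not analysed here. Tapbp had been selected by the study on these same arrays, for a lower level in the shRNA arrays and for predicted miRNA response elements, and the other 9 genes were added as its pathway with the results of these arrays known. The values of Tapbp are accordingly described, and no p-value is read for it.

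MHC class I molecules display short peptides from the cell's own proteins at the cell surface, where cytotoxic T cells read them. Peptides are cut by the proteasome, moved into the endoplasmic reticulum by the transporter TAP, trimmed there by aminopeptidases, and loaded onto a heavy chain paired with beta 2-microglobulin in a complex held together by tapasin. Most of these genes are interferon-inducible, and neuroblastoma cells are known for low surface class I.

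The hairpins that define the groups are shown first, since every comparison below rests on them. They are the forward oligonucleotides as designed, read 5′ to 3′, with the loop that separates the arms in capitals.
sh-pbcas4: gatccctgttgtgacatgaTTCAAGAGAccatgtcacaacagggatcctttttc
sh-scramble control: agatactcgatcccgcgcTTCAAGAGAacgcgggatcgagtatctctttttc
The miRNAs on which Tapbp was selected are shown next, with the seed (bases 2 to 8) in capitals. Both mature sequences are from RefSeq (GRCm38.p6, chromosome 12, plus strand), miR-882 at chr12:109682207-109682228 and miR-665-3p at chr12:109586368-109586387.
mmu-miR-882: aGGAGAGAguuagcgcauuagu
mmu-miR-665-3p: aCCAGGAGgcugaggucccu
The seeds of miR-882 and miR-665-3p are different. The study names miR-185 and miR-882 together as a single family. It did not expect miR-882 in N2A cells, and miR-185 was the miRNA it tested. No sequence of miR-185 is printed here. The precursor probe of Mir185 read 8.62, 8.37 and 8.53 on the log2 scale under shRNA and 8.37, 8.66 and 8.50 under scramble, a difference of -0.0008 (95% interval -0.27 to 0.27). The precursor probe of Mir665 read 7.38, 7.26 and 7.40 on the log2 scale under shRNA and 7.45, 7.33 and 7.37 under scramble, a difference of -0.04 (95% interval -0.24 to 0.17), and the arrays of the constructs overlapped.

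Tapbp was the loading gene with the lowest shRNA-to-scramble ratio. On the log2 scale it read 10.32, 10.94 and 10.69 in shRNA replicates 1, 2 and 3, and 11.08, 11.47 and 11.52 in scramble replicates 1, 2 and 3. Every shRNA array lay below every scramble array, with a gap of 0.14 between the nearest. The means were 10.65 ± 0.31 and 11.36 ± 0.24 (SD, n = 3 each), a log2 difference of -0.71 with a standard error of 0.19, or 0.612 of the scramble level. Between arrays of the same replicate number the log2 differences were -0.76, -0.54 and -0.83, so each pair ran the same way. In order of difference, Tapbp stood within the lowest 0.983% of genes. The difference was -0.54 without shRNA replicate 1, the lowest array, and -0.85 without shRNA replicate 2. These are bulk RNA measurements, in which fewer cells expressing a gene and less RNA per cell cannot be told apart.

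**Figure D1:**
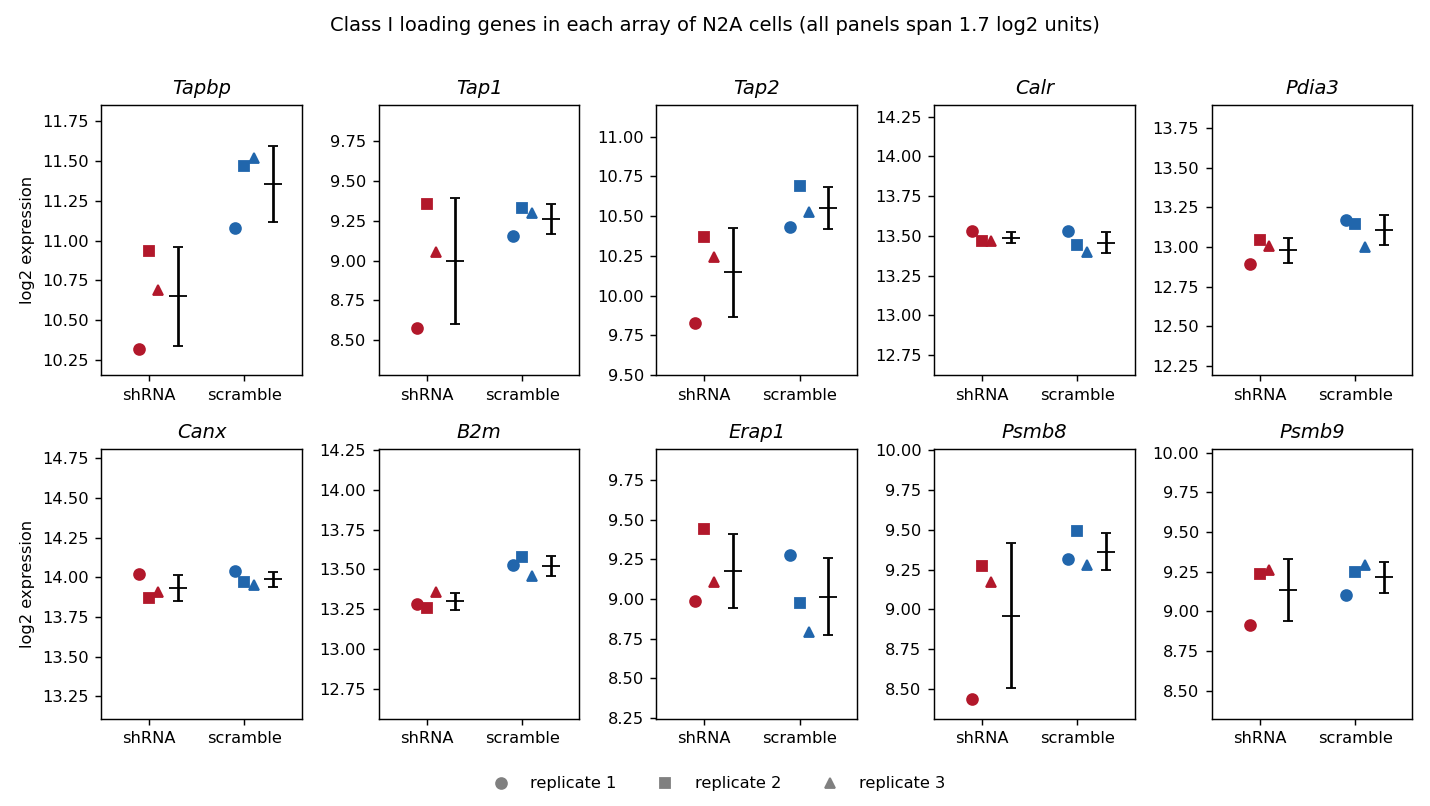
Log2 expression of the 10 loading genes in each array; the horizontal axis gives the construct, symbols give the replicate number, and bars give mean ± SD of 3 arrays. Tapbp, Tap2, B2m and Psmb8 have all shRNA arrays below all scramble arrays, whereas Calr and Canx lie at nearly the same level under both constructs.

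Of the 10 genes, 8 were lower in mean under shRNA, against 49% of all genes. Calling required a limma adjusted p below 0.05 together with a log2 difference above 0.5, and no gene met it, neither among the 10 nor among all genes (0%). The lowest adjusted p of any probe was 0.297. The study itself reported differentially expressed genes on these arrays, Tapbp among the lower ones. It restricted its probes by a variance between conditions over 0.5, which was read here as a size, with adjustment over all probes. The absence of calls here is therefore not the study's outcome. Of the 9 genes other than Tapbp, 2 (Tap2 and B2m) were lower at an unadjusted limma p under 0.05, where 5.46% of all genes were, and 0 were higher, where 6.22% of all genes were. That count was 0 without shRNA replicate 1, without shRNA replicate 3 or without scramble replicate 2. The arrays of the constructs did not overlap, with the shRNA arrays lower, for 4 of the 10 genes (Tapbp, Tap2, B2m and Psmb8) against 7.63% of all genes. They did not overlap in the opposite direction for 0 of the 10, against 9.13% of all genes. Tapbp is counted here as a description only, since its selection fixed its direction. The median difference was -0.17 for the 10 genes and 0.003 for all genes. Because Tapbp was selected on these arrays and its pathway was added with the results known, these counts describe the genes and are not independent evidence of their direction.

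The transporter genes were lower in mean as well. Tap2, the second subunit of the peptide transporter, read 9.83, 10.37 and 10.24 under shRNA and 10.43, 10.69 and 10.53 under scramble. Its arrays did not overlap, and the log2 difference of -0.40 (SE 0.16, 95% interval -0.78 to -0.03) did not pass over all probes (limma adjusted p = 0.472). Without shRNA replicate 1 the Tap2 difference was -0.25, and without shRNA replicate 2 it was -0.51. Tap1, the partner subunit, read 8.57, 9.36 and 9.06 against 9.15, 9.33 and 9.30, so that shRNA replicate 2 lay above every scramble array. Its difference of -0.26 (SE 0.20, 95% interval -0.74 to 0.21, limma adjusted p = 0.744) was within the spread between arrays. It was -0.05 without shRNA replicate 1 and -0.45 without shRNA replicate 2. The pairs of Tap1 were -0.58, 0.030 and -0.24, and thus not of a single sign.

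B2m, the invariant light chain of every class I molecule, had the tightest replicates of the genes whose arrays did not overlap. It read 13.28, 13.26 and 13.36 under shRNA and 13.53, 13.58 and 13.46 under scramble. The means were 13.30 ± 0.05 and 13.52 ± 0.06 (SD, n = 3 each), a log2 difference of -0.22 (95% interval -0.42 to -0.03) or 0.857 of the scramble level. The limma adjusted p was 0.461, and B2m was no longer under an unadjusted p of 0.05 with the replicate number as a block. Nor was it with each array centred on its median or without replicate 1 of both constructs. Among omissions of a single array, only that of scramble replicate 3 kept B2m under it. Leaving out any single array kept the B2m difference between -0.26 and -0.19, so this small difference did not turn on shRNA replicate 1.

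The chaperones that surround tapasin in the loading complex showed smaller differences, each with a 95% interval that included 0. Calr (calreticulin, the lectin chaperone of the complex) read 13.53, 13.47 and 13.47 against 13.53, 13.45 and 13.40, a log2 difference of 0.03 (95% interval -0.16 to 0.23, limma adjusted p = 0.96). Canx (calnexin, which holds the heavy chain earlier in folding) read 14.02, 13.87 and 13.90 against 14.04, 13.97 and 13.95, a difference of -0.05 (95% interval -0.26 to 0.15, adjusted p = 0.92). Both intervals leave out a change as large as the measured Tapbp difference. Pdia3 (ERp57, the oxidoreductase bound to tapasin) read 12.89, 13.04 and 13.01 against 13.17, 13.15 and 13.00, a difference of -0.13 (95% interval -0.35 to 0.09, adjusted p = 0.733). Its highest shRNA array lay above its lowest scramble array.

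Peptide supply gave a divided picture. Psmb8 and Psmb9 encode interferon-inducible catalytic subunits that replace the constitutive ones in the immunoproteasome. Psmb8 read 8.43, 9.27 and 9.17 under shRNA and 9.31, 9.49 and 9.28 under scramble. These did not overlap, but only by 0.01, and the log2 difference of -0.40 (SE 0.22, 95% interval -0.94 to 0.13) had a limma adjusted p of 0.617. Without shRNA replicate 1 the Psmb8 difference was -0.14, and without shRNA replicate 2 it was -0.56. Psmb9 read 8.91, 9.24 and 9.26 against 9.11, 9.25 and 9.29, a difference of -0.08 (95% interval -0.37 to 0.21, adjusted p = 0.92) that turned to 0.03 without shRNA replicate 1. Erap1, the aminopeptidase that trims peptides in the endoplasmic reticulum, read 8.99, 9.44 and 9.11 against 9.28, 8.97 and 8.79. Its shRNA mean was higher, as that of Calr was, by 0.16 (95% interval -0.24 to 0.57, adjusted p = 0.851), and its pairs of -0.29, 0.47 and 0.31 were not of a single sign. The Erap1 difference was 0.05 without scramble replicate 3, 0.03 without shRNA replicate 2, 0.26 without shRNA replicate 1 and 0.29 without scramble replicate 1.

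**Figure D2:**
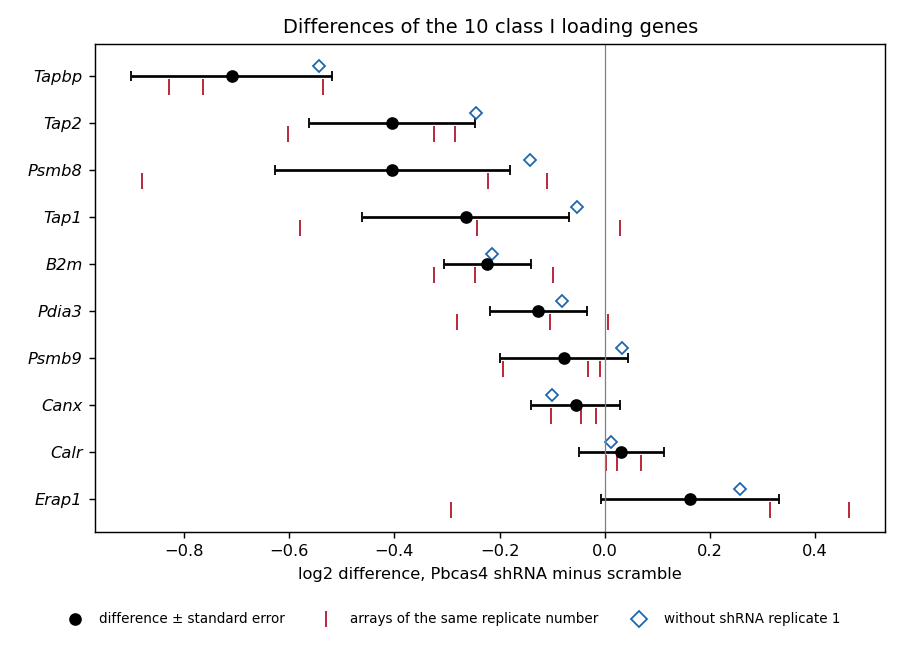
Log2 differences (shRNA minus scramble) of the 10 loading genes, ordered by size; filled points and bars are the difference ± standard error from 3 arrays per construct, ticks are the differences within each replicate number, and open diamonds leave out shRNA replicate 1. Without shRNA replicate 1 the difference of Psmb8 is -0.14 in place of -0.40 and that of Tap1 -0.05 in place of -0.26, Psmb9 lies beyond 0, and B2m stays at -0.21.

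The genes were also read by where they lie, and the difference between the places was not tested. Tapbp, Tap1, Tap2, Psmb8 and Psmb9 lie in the MHC region of chromosome 17, whereas Pdia3 and B2m are on chromosome 2, Calr on 8, Canx on 11 and Erap1 on 13. All 5 genes of the MHC region had a lower shRNA mean, with a median difference of -0.40, and the 5 genes elsewhere had a median of -0.05. Tapbp is among the 5 of the region, and its selection on these arrays fixed its direction. The counts, medians and means that include it therefore describe the values only. The other genes of the region were Tap2 and Psmb8 at -0.40, Tap1 at -0.26 and Psmb9 at only -0.08. Outside the region B2m differed by -0.22. Without shRNA replicate 1, 4 of the 5 genes of the region were lower, with a median of -0.14, and the median elsewhere was -0.08. Averaged over the 5 MHC region genes, the log2 level was 9.21, 9.83 and 9.68 under shRNA and 9.82, 10.05 and 9.98 under scramble. shRNA replicate 1 was the lowest of the 6 arrays for each of these 5 genes and for 1 of the 5 others (Pdia3), while it was the lowest for 20.8% of all genes. The mean of the 5 genes elsewhere was 12.54, 12.62 and 12.57 against 12.71, 12.62 and 12.52, so there the constructs overlapped.

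**Figure D3:**
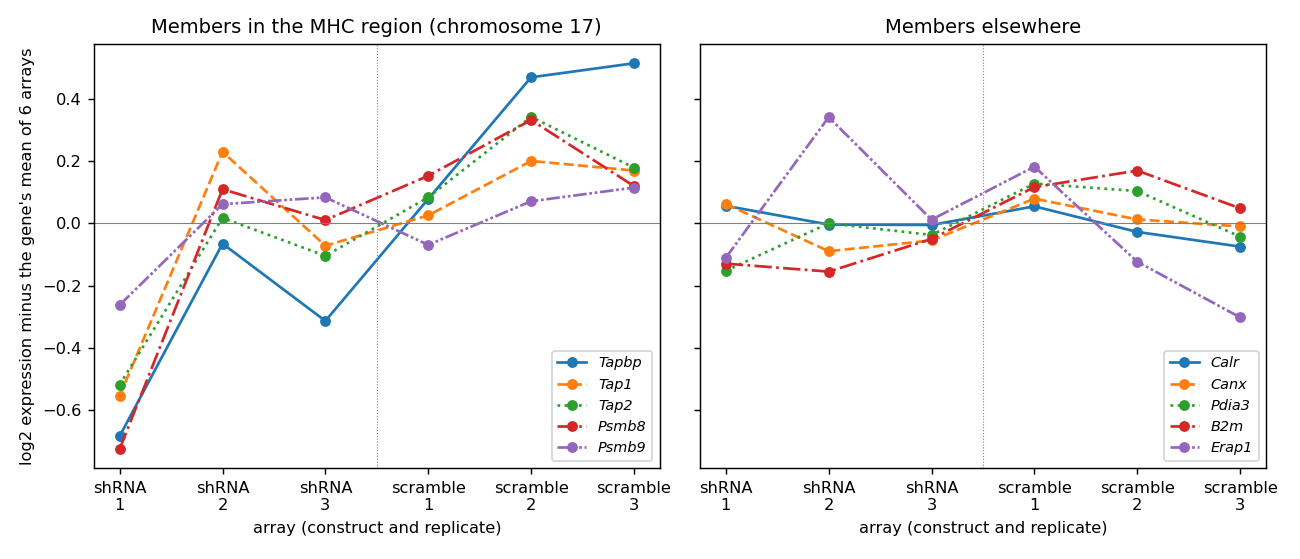
Profiles of the 10 genes over the 6 arrays, as log2 expression minus the gene's own mean; the left panel holds the 5 genes of the MHC region and the right panel the 5 others, with shRNA arrays left of the dotted line. The drop at shRNA replicate 1 is shared by the genes on the left, and scramble replicates 2 and 3 are the highest arrays of Tapbp.

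Position was also compared gene by gene. Between Tapbp and Tap2 on the chromosome there were 17 other measured genes, of which 10 had a lower and 7 a higher shRNA mean, with a median difference of -0.03. Of these 17, 1 lay lower without overlap and 2 lay higher, against 7.63% and 9.13% of all genes. The 10 measured genes nearest to Tapbp, 5 on each side (Rps28, Ndufa7, Cd320, Daxx and Zbtb22 on the one, Rgl2, Pfdn6, Wdr46, B3galt4 and Rps18 on the other), had differences from -0.16 to 0.13. The immediate neighbours Zbtb22 (-0.04, 95% interval -0.27 to 0.19) and Rgl2 (-0.03, 95% interval -0.23 to 0.17) were at nearly the same level under both constructs. Of the 10, B3galt4 lay lower and Cd320 higher without overlap. The Tapbp difference was wider than that of any of these 10 neighbours. Tapbp was selected on these arrays for a lower level and the neighbours were not, so this describes the values only.

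The start regions were read from RefSeq (GRCm38.p6) for the 9 of the 10 genes that the promoter table holds, as 250 bases before each start and on both strands. Tap2 is the gene it lacks, and no motif was searched for Tap2. The stretch before Tapbp, the one shared by Psmb9 and Tap1, and the composite or rarer elements found in B2m, Calr and Canx are printed 5′ to 3′, with matches to the searched motifs in capitals. The stretch before Tapbp runs from the end of Zbtb22 to the Tapbp start (chr17:33919326-33919477, plus strand), and the one labelled Psmb9-Tap1 is the whole 225 bases between the starts of these genes, which are transcribed away from each other (chr17:34187331-34187555, plus strand). The B2m element is at chr2:122147545-122147574 (plus strand), and the Calr and Canx elements are at chr8:84847070-84847098 and chr11:50325795-50325823 (minus strand).
Tapbp: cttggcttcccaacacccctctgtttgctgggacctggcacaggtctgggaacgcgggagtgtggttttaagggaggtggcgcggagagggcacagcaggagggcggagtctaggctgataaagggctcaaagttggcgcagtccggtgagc
Psmb9-Tap1: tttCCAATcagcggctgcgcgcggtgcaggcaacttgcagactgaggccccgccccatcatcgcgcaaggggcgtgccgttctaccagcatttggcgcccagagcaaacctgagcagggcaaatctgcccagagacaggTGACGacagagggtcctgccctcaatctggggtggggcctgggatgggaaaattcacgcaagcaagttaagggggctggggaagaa
B2m element: catGAAACTGAAAatGGGAAAGTCCCtttg
Calr element: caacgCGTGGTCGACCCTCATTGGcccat
Canx element: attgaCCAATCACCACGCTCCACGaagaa
The interferon-stimulated response element, searched as GAAANNGAAA, was found in 1 gene (B2m), and 2.98% of all promoters hold it. In B2m it is followed by a match to the NF-kappaB site, found in 2 of the 9 genes (B2m and Calr) and in 13.8% of promoters. The gamma-activated site, searched as TTCNNNGAA, was found in 1 gene (Psmb8; 7.02% of promoters). The cAMP response element core TGACG was found in 5 genes (Pdia3, B2m, Canx, Psmb9 and Tap1; 17.8% of promoters), and CCAAT in 7 (33.8% of promoters), the exceptions being Erap1 and Psmb8. For both motifs, Psmb9 and Tap1 hold the same site in their shared stretch, and it is counted for each of them. The ER stress element, searched as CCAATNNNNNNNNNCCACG and therefore overlapping the CCAAT search, was found in Calr and Canx, with 0.113% of promoters holding it. The printed Tapbp stretch holds none of these letters, and its CCAAT matches lie further from the start. The matches are letters only. Psmb9 and Tap1 share the printed 225 bases and had differences of -0.08 and -0.26, and the root mean square distance between their profiles, each centred on its own mean, was 0.167.

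By that distance the profile of Tap2 was the nearest to Tapbp among the 10 genes (0.186 over 6 arrays, rank 369 of all genes), followed by Psmb8 (0.230) and Tap1 (0.244). The chaperones Canx (0.430) and Calr (0.456) were about as far as the median gene (0.44), and Erap1 was further (0.522). Tap1, Tap2 and Psmb8 were closer to each other (0.109 to 0.120) than to Tapbp, and Calr and Canx were the closest pair of all (0.052). The profiles were centred but not scaled, so genes that vary little, as Calr and Canx do, lie close whatever their pattern. The nearest genes of the whole array were outside the pathway. They were Adamts4 (0.026), Adgra1 (0.054), Sez6l2 (0.054), Tmem241 (0.061) and Atp2b3 (0.061), with differences from -0.80 to -0.64. As an example, Adamts4, a secreted metalloprotease that cleaves aggrecan, read 9.99, 10.68 and 10.38 under shRNA and 10.77, 11.20 and 11.25 under scramble. These distances were computed on the arrays on which Tapbp was selected and describe them only.

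The wider class I pathway was read from lists of genes, again chosen with results of these arrays known. Over the 102 measured genes of 6 lists, 49 had a lower and 53 a higher shRNA mean, the median difference was 0.007, 8 were lower and 8 higher at an unadjusted p under 0.05, and 0 were called. Over all genes, 5.46% were lower and 6.22% higher at an unadjusted limma p under 0.05. The lists differed in direction among themselves.

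Among class I heavy chains and class I-like genes, 11 of 22 had a probe of their own, and H2-K1 and H2-D1 were among those that did not. Of the 11, 10 had a lower shRNA mean, with a median of -0.14, while 0 passed an unadjusted p under 0.05 and 0 had arrays that did not overlap. Of these 11, 5 lay below the median of all probes (7.83), and shRNA replicate 1 was the lowest array in 7, against 20.8% of all genes. Over all genes, 5.46% were lower at that p and 7.63% lay lower without overlap. The widest difference was that of Mr1, which presents microbial vitamin B metabolites (-0.75, 95% interval -2.61 to 1.10). Mr1 read 7.85, 10.09 and 9.13 under shRNA and 8.33, 10.18 and 10.82 under scramble, so that replicate 1 was the lowest array under both constructs. H2-M3, which presents formylated peptides, read 7.96, 8.77 and 8.52 against 8.37, 9.11 and 9.14, with the same order of replicates.

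Of 16 loading cofactors and folding enzymes, 9 were lower and 7 higher in mean, and the median was -0.04. Tapbpl (TAPBPR, the tapasin-related peptide editor) read from 7.72 to 7.89 under shRNA and from 7.96 to 8.15 under scramble, a log2 difference of -0.26 (limma adjusted p = 0.461). Bcap31, an export receptor for class I and other membrane proteins, read 12.11, 11.78 and 11.87 against 12.30, 12.43 and 12.23, a difference of -0.40 (limma adjusted p = 0.401). In both of these genes the arrays did not overlap, with the shRNA arrays lower, as in 7.63% of all genes. The general folding chaperone Hspa5 (BiP) differed by 0.02 (95% interval -0.18 to 0.22).

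The proteasome list went mostly the other way, since 18 of 21 genes had a higher shRNA mean, with a median of 0.08. The 3 lower ones were Psmb1 (-0.08) and the interferon-inducible activator subunits Psme1 and Psme2, which open the core to release peptides. Psme1 read 11.02, 11.48 and 11.41 against 11.58, 11.77 and 11.84, a log2 difference of -0.43 (limma adjusted p = 0.431). Psme2 read 12.00, 12.17 and 12.08 against 12.46, 12.41 and 12.29, a difference of -0.30 (limma adjusted p = 0.413). Both lay lower without overlap, and 4 genes of the list (Psma3, Psmb7, Psme3 and the assembly factor Pomp) lay higher without overlap. Over all genes, 7.63% lay lower and 9.13% higher without overlap. Psme3, the nuclear activator, was higher by 0.28 (limma adjusted p = 0.469). The constitutive catalytic subunits Psmb5, Psmb6 and Psmb7 differed by 0.05, 0.03 and 0.13, and Psmb10, the remaining inducible one, by 0.16 (95% interval -0.19 to 0.51).

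Of 11 peptidases that trim or destroy class I peptides, 9 had a higher shRNA mean, as Erap1 did, with a median of 0.14. Of the 11, 5 lay higher without overlap, against 9.13% of all genes. Cytosolic Thop1 read 10.59, 10.57 and 10.65 against 10.42, 10.07 and 9.99, a log2 difference of 0.45 (limma adjusted p = 0.401). Prep was higher by 0.39 (adjusted p = 0.401) and Lap3 by 0.33 (adjusted p = 0.461). In each of these 3 genes scramble replicate 1 was the scramble array nearest to the shRNA arrays.

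**Figure D4:**
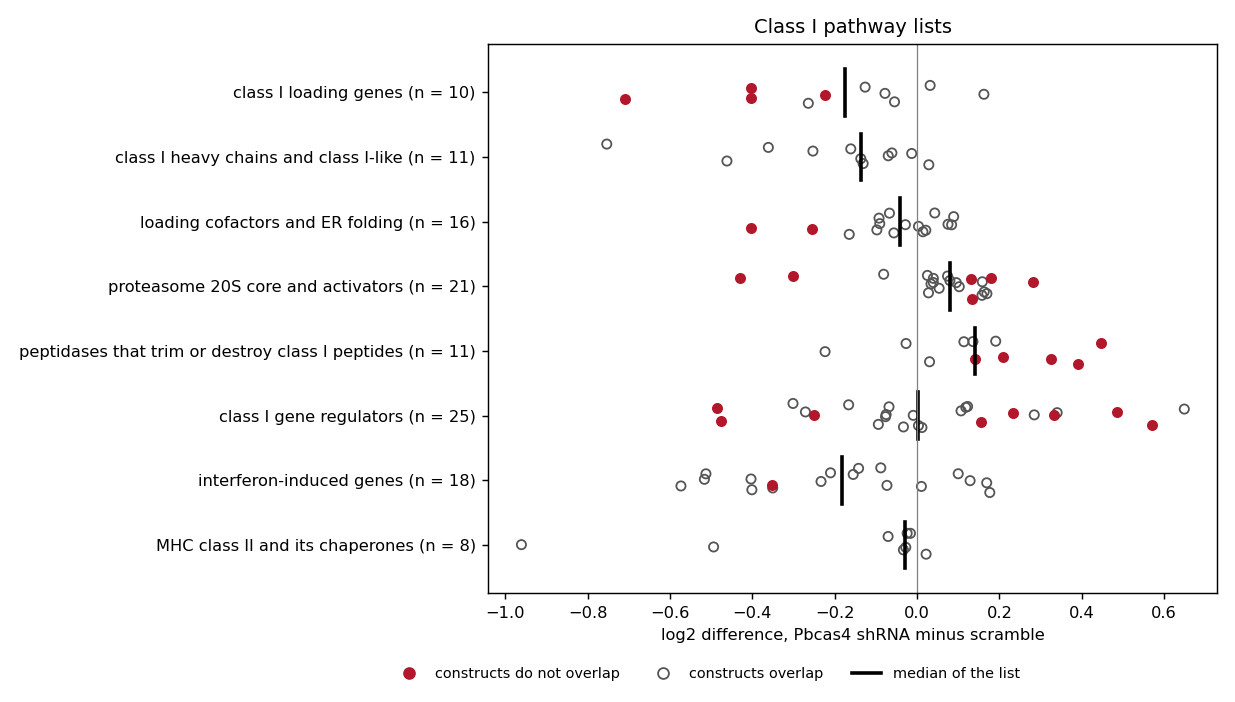
Log2 differences (shRNA minus scramble) of the loading genes and of 7 lists; each point is a gene, filled where the 3 arrays of the constructs did not overlap, and the black bar is the list's median. The loading genes and the interferon-induced genes have medians of -0.17 and -0.18, and the peptidases of 0.14.

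Regulators of class I genes were split, with 12 of 25 lower and 13 higher in mean and a median of 0.003. Of the 25, 3 (Irf1, Irf9 and Tyk2) lay lower without overlap, against 7.63% of all genes. In the other direction 5 lay higher without overlap (Jak2, Ezh2, Nfyb, Rela and Rfxank), against 9.13% of all genes. The interferon-gamma receptor kinase Jak2 was higher by 0.49 (limma adjusted p = 0.363), and Ezh2, the methyltransferase of Polycomb complex 2, by 0.57 (limma adjusted p = 0.441). Tyk2, a kinase of the type I interferon receptor, differed by -0.49 (limma adjusted p = 0.426). Irf1 and Irf9 were singled out after their values were seen. Irf1, a transcription factor of the interferon response that binds class I pathway promoters, read 9.16, 9.29 and 9.19 under shRNA and 9.77, 9.68 and 9.63 under scramble. Its arrays were separated by 0.34, more than those of Tapbp, with a log2 difference of -0.48 (limma adjusted p = 0.344), and shRNA replicate 1 did not stand apart from the other shRNA arrays. Irf9, part of the factor that answers type I interferon, differed by -0.25, lower without overlap (limma adjusted p = 0.461). Nlrc5, the transactivator of class I genes, differed by -0.08 (95% interval -0.43 to 0.28).

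The interferon-induced genes, as a list of 18, had a lower shRNA mean in 13 and a median of -0.18. Their mean level was 7.71, 8.23 and 8.02 under shRNA and 7.97, 8.24 and 8.33 under scramble, with shRNA replicate 1 the lowest array in 12 of 18, the same array that was lowest for the MHC region genes. Without that array the median of the list was -0.08. Ifi35 was the only one of the 18 at an unadjusted p under 0.05, at -0.51 (limma adjusted p = 0.459), where 5.46% of all genes were lower. Of the 18, 10 lay below the median of all probes (7.83), whereas all 10 loading genes lay above it. The part of this list in the loading genes was not tested.

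Markers of other cells and states were read for the same arrays. Of 7 leukocyte markers, 6 lay below the median of all probes, and Ptprc (CD45) read 6.32, 6.10 and 6.27 against 6.14, 6.16 and 6.09. The mean over the 7 ranged from 6.46 to 6.66 under shRNA and from 6.57 to 6.60 under scramble. Of 8 MHC class II genes, 6 lay below that median, and H2-Oa differed by -0.49 (limma adjusted p = 0.476). Cd74, the invariant chain, was well above it and varied more than any loading gene, at 9.29, 11.54 and 11.03 against 10.34, 11.94 and 12.46. Replicate 1 was thus the lowest array of Cd74 under both constructs. Of 9 sympathoadrenal neuroblast markers, 7 lay above the median of all probes. Their median difference was -0.17, from -1.69 (Ache), -1.34 (Dbh) and -1.08 (Th) to 0.05 (Phox2a), with Tubb3 at -0.17 and Hand2 at -0.15. The mean of 11 mitosis genes, among them Plk1, Aurka and Bub1, was 12.28, 12.21 and 12.18 under shRNA and 12.18, 11.48 and 11.06 under scramble, so that scramble replicate 1 lay beside the shRNA arrays. Scramble replicate 1 was also the scramble array with the lowest Tapbp. The part of these markers in the loading genes was not tested.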

How the data were processed

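The 6 arrays (3 per construct) were read from the deposited value table, in which the authors give log2 expression summarised to 1 value per probe; the background correction, summarisation and normalisation are not given in the sources used here. Array medians lay between 7.75 and 7.86, no arrays were identical, and the values were not normalised again. Array signal is not a molecule count, and precision is limited by the number of arrays. The loading genes and the gene lists were chosen with earlier results of these data known.

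Of 35556 probes, 21789 carried exactly 1 symbol, 1621 several and 12146 none. Genes were named from probes of 1 symbol, the brightest where there were several, and 149 of 172 listed symbols matched. A pair of probes annotated to both Rps3a1 and Tapbp, with differences of 0.06 and 0.03, was not used. limma 3.58.1 in R 4.3.3 (lmFit, eBayes, two-sided, no covariate) was fitted to all probes with Benjamini-Hochberg adjustment, and calling required an adjusted p below 0.05 together with a log2 difference above 0.5. That size is a reading of the study's criterion of a variance between conditions. The fit was tested on simulated data. The p-values measure the spread between transfections. Named genes were the 10 loading genes, up to 3 genes per list with the widest difference among those at an unadjusted p under 0.05 (otherwise the widest), the 5 profiles nearest to Tapbp and its 5 neighbours on each side. Hspa5, H2-M3, Psma3, Psmb1, Psmb5, Psmb6, Psmb7, Psmb10, Pomp, Phox2a, Hand2, Tubb3, Mir185, Irf1, Irf9, Nlrc5 and Cd74 were named after their values were seen.

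After the construct means were removed, arrays of the same replicate number correlated at 0.291, 0.137 and 0.103 across probes, and shRNA replicate 2 correlated with scramble replicate 3 at 0.199. As every same-number value was above 0.1, a fit with the number as a block was added beside the unblocked one. Other alternatives were quantile normalisation, median centring, array weights, a trended robust variance, probe filters, averaging the probes of a gene, and leaving out arrays. Sequences are from RefSeq and from the study's oligonucleotide list. Figures were drawn with matplotlib 3.10.9.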

Additional observations from a re-analysis of the deposited data

How the results depend on the processing

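Over 15 alternatives the Tapbp difference kept its sign, which its selection had fixed, at -0.54 to -0.85. The replicate block, the trended robust variance, the probe filters and the averaging of probes left it at -0.71 by construction. These settings could change only the p-values of the loading genes, not their differences. Of 135 values of the other loading genes, 133 kept their sign and their side of the threshold, Psmb9 turned to 0.0337 without shRNA replicate 1 (-0.14 to 0.03 over the arrays left out), and Tap2 reached an adjusted p of 0.0494 with array weights. The weights ran from 0.353 for scramble replicate 1 to 5.32 for shRNA replicate 3, and with them 1320 of 19938 genes were called, in place of 0. No loading gene other than Tapbp was among them, and for Tapbp, which had been selected on these arrays, no call is read. Of the 9 loading genes other than Tapbp, 2 were at an unadjusted p under 0.05. That count became 0 with each array centred on its median and 0 to 2 with single arrays left out (0 without shRNA replicate 1, shRNA replicate 3 or scramble replicate 2). The count of the 10 loading genes lower without overlap, Tapbp included, was 4 or 5 under the 12 alternatives for which it was computed. It could not fall below 4 there, because the values were unchanged or arrays were only left out, so it shows no stability. The replicate block gave 1 of the 9 loading genes other than Tapbp (Tap2) at an unadjusted p under 0.05 and 0 called, and changed no other call.

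Over all genes, 2329 had an unadjusted p under 0.05, and 740 of these differed by over 0.5. These counts were 6505 and 1566 with array weights, 4221 and 1639 without both arrays of replicate 1, and 3866 and 1690 without scramble replicate 1. They were 1062 and 372 without scramble replicate 2 and 1203 and 375 without scramble replicate 3, and the first was 1281 without shRNA replicate 3. The cause was not tested. Of 165 list medians, 158 moved by less than the spread between replicates and 7 by more. The replicate block, the trended robust variance and the restriction to probes with 1 symbol could not move a list median. Their medians are among the 158 and show no stability.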
